A study of Mus musculus with 12 samples.

Results

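The miR-30 family guide strands were examined in extracellular vesicles, the membrane particles that cells release with small RNA inside. The 5 members, mmu-miR-30a-5p, mmu-miR-30b-5p, mmu-miR-30c-5p, mmu-miR-30d-5p and mmu-miR-30e-5p (the mouse prefix mmu is left out where the name recurs), were taken by name from a table of 1978 annotated mouse miRNA entries, of which 501 had a count. The vesicles came from cultured bone marrow mesenchymal stem cells of SPF-grade C57BL/6 mice, which give rise to bone and fat cells. The 12 libraries fell by title into the groups PLL, NY, aFM and DZ, with replicates A, B and C in each, and 1 label of antigen treatment was shared by all of them. The design text names the hydatid (tapeworm cyst) preparations ESPs, HCF and pLL, given at 2 µg/ml for 48 h. These are 3 preparations for 4 groups, and no label says what NY, aFM and DZ stand for or which group, if any, was unstimulated. DZ served here only as a common point of comparison. The labels do not say whether the replicates are independent cultures or animals, and the spread behind each p-value may therefore be purely technical.

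A miRNA is cut from a hairpin, and its guide strand finds messenger RNAs mainly through the seed, bases 2 to 8 from the 5′ end. Members of the miR-30 family share that seed and so share most predicted targets. In mesenchymal and osteoblast cells the family is known to restrain bone formation through Smad1 and Runx2, to favour fat cell differentiation, and in heart to restrain the fibrosis gene Ctgf. The family is also known as abundant in many epithelia.

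The mature sequences are shown because they show how few bases set the members apart. RefSeq entries (GRCm38.p6) were matched for 3 members. The RefSeq table used has no mature entry for miR-30b-5p and miR-30d-5p, so their sequences were not compared. Capitals mark the seed:
miR-30a-5p: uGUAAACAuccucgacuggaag
miR-30c-5p: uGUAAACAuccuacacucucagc
miR-30e-5p: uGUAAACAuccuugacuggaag
The first 12 bases were the same in all of these. Counted from 1 at the 5′ end, miR-30a-5p and miR-30e-5p differed at 1 of 22 positions, C13U. Between miR-30a-5p and miR-30c-5p, 5 of the 22 compared positions differed, from C13A to A20C. How the authors' counting treated mismatches is not given in the sources used here, so levels of the near-identical members are uncertain to that extent.

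Among the 1679 mature mouse names in the RefSeq table, which lacks miR-30b-5p and miR-30d-5p, 4 had the same seed, these 3 and miR-384-5p:
miR-384-5p: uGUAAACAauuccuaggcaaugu
That miRNA had 0 counts in all 12 libraries, which allows up to 8.39 CPM (the count scaled to annotated library size) over the 357613 annotated counts, as a limit on counting error only. miR-30f, annotated on the strand opposite Mir30e and starting with the seed letters one base earlier, had 0 counts too. All 5 members had counts, 4579 in sum.

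In GRCm38.p6 the members come from 6 hairpins in 3 pairs. On chromosome 1, plus strand, Mir30a lies at 23272269 to 23272339 outside other annotated genes. Mir30c-2 lies 19361 bases further, at 23291701 to 23291784, in an exon of the long noncoding RNA gene Gm27028. On chromosome 4, minus strand, Mir30c-1 (120769534 to 120769622) and Mir30e (120772606 to 120772697) lie in introns of Nfyc, which encodes a subunit of the transcription factor NF-Y. On chromosome 15, minus strand, Mir30b (68337415 to 68337510) and Mir30d (68341208 to 68341289) overlap exons of the noncoding genes Gm26621 and Gm20732. Both Mir30c hairpins give the same guide, so its counts cannot be divided between them.

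Library totals ran from 68647 to 214303 counts. Annotated miRNAs held 28592 to 60436 counts in PLL, 28257 to 35114 in NY, 22903 to 29600 in aFM and 17607 to 24758 in DZ, and the rest belonged to predicted loci. The 6 mesenchymal markers (miR-199a, miR-214, miR-143, miR-145a and miR-140 strands) had counts in every group, with a summed level of 54771 to 111473 CPM in PLL, 85465 to 105001 in NY, 80199 to 97062 in aFM and 90402 to 96553 in DZ. Markers of blood cells summed to 35939 to 80509 CPM in PLL, 69859 to 122287 in NY, 54578 to 86336 in aFM and 68867 to 126257 in DZ, with miR-142a-3p at 0 in NY and DZ and miR-144-3p at 0 in NY. Epithelial markers summed to 1456 to 3288 CPM in PLL, 1628 to 2158 in NY, 3277 to 4066 in aFM and 2733 to 10179 in DZ, with miR-141-3p at 0 in NY, aFM and DZ, miR-429-3p at 0 in PLL and aFM, and miR-205-5p at 0 in PLL. Neural markers differed most: they summed to 64333 to 138990 CPM in PLL, 8914 to 11785 in NY, 37162 to 40475 in aFM and 2329 to 2897 in DZ, where miR-124-3p was at 0. The hepatic marker miR-122-5p had 3045 to 8604 CPM in PLL, 2221 to 3256 in NY, 15101 to 16077 in aFM and 1694 to 40633 in DZ. Endothelial markers summed to 1241 to 2553 CPM in PLL, 365 to 920.1 in NY, 5021 to 5271 in aFM and 525 to 1420 in DZ, with miR-126a-5p at 0 in NY. Muscle markers summed to 1660.2 to 2278 CPM in NY and at most 848 in any library of the other groups, with miR-133a-3p at 0 in aFM and DZ. Their part in the results below was not tested. PLL replicate A stood apart in depth and in its TMM scaling factor, 0.7303 against 0.8961 to 1.128 in the other libraries. In vesicles, fewer particles from a cell type and less RNA per particle cannot be told apart.

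As a whole the family was a small part of the annotated vesicle miRNAs, with overlapping groups. It held 1.31% ± 0.287 of annotated counts in PLL, 1.30% ± 0.110 in NY, 1.22% ± 0.184 in aFM and 1.39% ± 0.306 in DZ (SD, n = 3). By library, the share was 1.04%, 1.29% and 1.61% in PLL replicates A, B and C, 1.43%, 1.23% and 1.24% in NY, 1.09%, 1.15% and 1.43% in aFM, and 1.05%, 1.65% and 1.47% in DZ. All groups overlapped, and the lowest and the highest library were PLL replicate A and DZ replicate B. Without PLL replicate A, the library that stood apart, the PLL mean was 1.45%. As a share of all counts, predicted loci included, the family held 0.377% to 0.670% in PLL, 0.232% to 0.378% in NY, 0.116% to 0.285% in aFM and 0.108% to 0.338% in DZ. On that scale PLL did not overlap aFM or DZ, and the share of counts in annotated miRNAs moved with it, at 29.2% to 60.7% in PLL, 18.6% to 30.6% in NY, 10.7% to 19.9% in aFM and 10.3% to 21.6% in DZ. Its part in that difference was not tested.

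The order of levels was miR-30d-5p, miR-30a-5p, miR-30c-5p, miR-30e-5p and miR-30b-5p in each group by mean CPM. The mature strands are 22 or 23 bases long where a sequence was matched. The counting of reads that match several entries is unknown. miR-199a-3p and miR-199b-3p had equal counts in all 12 libraries, as did miR-486a-5p and miR-486b-5p. Whether such reads were counted in each entry or divided among entries is not known. Neighbours in that order did not overlap within PLL or within NY. In aFM the libraries overlapped at each step below miR-30d-5p, and in DZ miR-30e-5p and miR-30b-5p overlapped. By mean CPM over all libraries, miR-30d-5p ranked 23rd among annotated miRNAs and miR-30a-5p 45th. miR-30c-5p, miR-30e-5p and miR-30b-5p ranked 65th, 82nd and 161st.

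**Figure D1:**
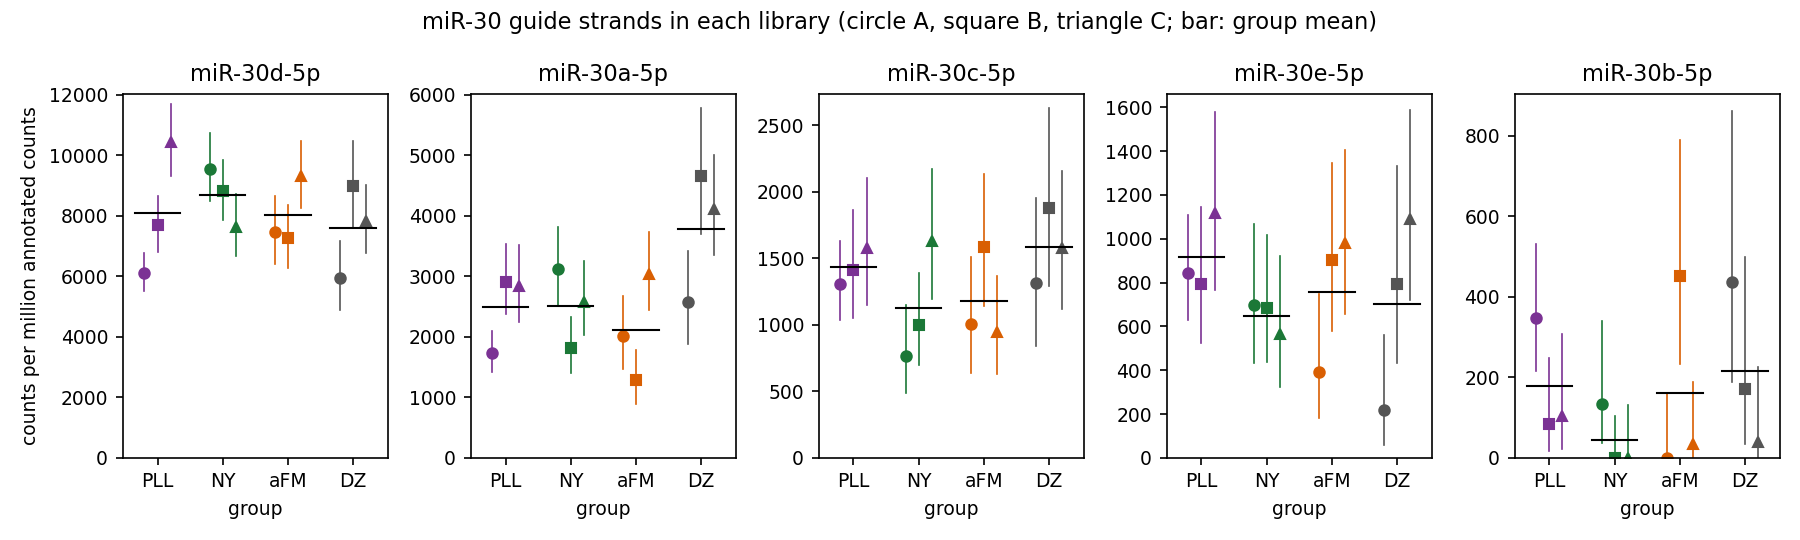
CPM of each member (vertical axis from 0, own scale per panel) in the 3 libraries of PLL, NY, aFM and DZ, with the exact 95% binomial interval of each library as a line and the group mean as a bar. miR-30d-5p lay between 5958 and 10457.5 CPM with overlapping groups, while miR-30b-5p was at 0 in 3 libraries.

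mmu-miR-30d-5p, a guide found in many cell types and body fluids, carried most of the family. Its levels were 6122, 7689 and 10457.5 CPM in PLL replicates A, B and C, 9563, 8828 and 7644 CPM in NY, 7466, 7267 and 9324 CPM in aFM, and 5958, 8974 and 7836 CPM in DZ. The groups overlapped, and the libraries of PLL spread more widely than those of NY. The log2 fold change was 0.10 ± 0.23 in PLL against DZ (SE, 95% interval -0.39 to 0.60), 0.20 ± 0.23 in NY against DZ (-0.30 to 0.69) and -0.021 ± 0.23 in aFM against DZ (-0.51 to 0.47). These intervals leave room for changes of the size of their bounds in either direction.

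mmu-miR-30a-5p, which is known to act on the autophagy gene Becn1 besides the shared targets, had the largest fold change against DZ among the 4 members that passed the filter on low counts. It had 1737, 2912 and 2833 CPM in PLL replicates A, B and C, 3121, 1823 and 2583 CPM in NY, 2008, 1280.2 and 3041 CPM in aFM, and 2569, 4657 and 4119.9 CPM in DZ. DZ replicates B and C were the highest of all libraries, and DZ replicate A lay among the other groups. The log2 fold change was -0.94 ± 0.32 in aFM against DZ (SE, 95% interval -1.64 to -0.25), with an unadjusted p = 0.0122 and an adjusted p = 0.0556 (edgeR's quasi-likelihood test, Benjamini-Hochberg), so it did not pass the threshold of 0.05. DESeq2 gave an adjusted p = 0.124. With upper quartile factors the same difference passed (log2 fold change -1.10, adjusted p = 0.0432), where 17.4% of all tested miRNAs were called. Against DZ, the values were -0.60 ± 0.31 in PLL (-1.28 to 0.090) and -0.60 ± 0.32 in NY (-1.29 to 0.091). These 3 comparisons share the DZ libraries.

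mmu-miR-30c-5p, the member best known for binding the Runx2 transcript, the master regulator of bone cells, had 1307, 1413 and 1574 CPM in PLL replicates A, B and C. It had 764, 997 and 1628 CPM in NY, 1004, 1581 and 946 CPM in aFM, and 1312, 1874 and 1575 CPM in DZ. PLL libraries lay close together, with a coefficient of variation (SD over mean) of 9.38%, beside 13.1% from counting alone. NY and aFM each held 1 library above the other 2. The exact 95% counting interval of NY replicate C, 1192 to 2171 CPM, overlapped that of NY replicate B, 694 to 1386. That of aFM replicate B, 1140 to 2137 CPM, overlapped that of aFM replicate A, 637 to 1506. Its log2 fold change was -0.10 ± 0.34 in PLL (SE, 95% interval -0.85 to 0.65), -0.51 ± 0.35 in NY (-1.27 to 0.25) and -0.52 ± 0.35 in aFM (-1.28 to 0.25), each against DZ, with adjusted p = 0.810, 0.649 and 0.430 in edgeR's test.

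mmu-miR-30e-5p, encoded beside Mir30c-1 in Nfyc, had 844, 792 and 1119 CPM in PLL replicates A, B and C, 697, 683 and 566 CPM in NY, 393, 904 and 979.7 CPM in aFM, and 219, 795 and 1091 CPM in DZ. The low DZ library, replicate A, rested on 4 counts. PLL and NY did not overlap for this member; the same held for 22.7% of the 132 miRNAs tested in that comparison, and the log2 fold change was 0.54 ± 0.48 (SE, 95% interval -0.50 to 1.58, adjusted p = 0.460 in edgeR's test). No other pair of groups was free of overlap for miR-30e-5p or for another tested member. Of all tested miRNAs, 17.4% did not overlap in PLL against DZ, 18.2% in NY against DZ, 30.3% in aFM against DZ, 34.1% in PLL against aFM and 42.4% in NY against aFM.

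mmu-miR-30b-5p, encoded next to Mir30d, was close to the limit of detection. It had 21, 3 and 3 counts in PLL replicates A, B and C, 4, 0 and 0 in NY, 0, 12 and 1 in aFM, and 8, 3 and 1 in DZ. The libraries at 0 allow up to 85.4 CPM in NY replicate B, 106 CPM in NY replicate C and 131 CPM in aFM replicate A. High single libraries set the group means, and the member did not pass the filter on low counts, so it has no fold change in the main test. With no filter, its largest log2 fold change against DZ was -2.28 ± 1.22 in NY (SE, 95% interval -4.66 to 0.11, adjusted p = 0.794 in edgeR's test). That value rests on 4 counts in NY against 12 in DZ. Its sum over all libraries was 56 counts against 2856 for its neighbour miR-30d-5p.

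Of the 4 members tested, 0 passed the threshold in any of the 6 comparisons or in the joint test of any difference among the groups (edgeR's quasi-likelihood test). Of all 132 miRNAs tested, 3.79% were called in PLL against DZ, 0.758% in NY against DZ and 18.9% in aFM against DZ. The share called was 6.82% in PLL against NY, 9.09% in PLL against aFM and 3.79% in NY against aFM, and 12.1% in the joint test. At an unadjusted p under 0.05, 1 member was counted in aFM against DZ, where 30.3% of all tested miRNAs were, and 0 in the others. The share of all tested miRNAs under it was 28% in PLL against DZ, 14.4% in NY against DZ, 21.2% in PLL against NY, 32.6% in PLL against aFM, 27.3% in NY against aFM and 41.7% in the joint test. DESeq2 called 0 members. With 4 members, a count of 0 at the adjusted threshold lies close to the shares called at that threshold. It is not read as particular to the family. Whether the unadjusted counts differ from their background shares was not tested. The median log2 fold change of the 4 was -0.27 in aFM against DZ, beside -0.14 over all tested miRNAs, -0.30 beside 0.022 in NY against DZ, and 0.00089 beside 0.22 in PLL against DZ.

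**Figure D2:**
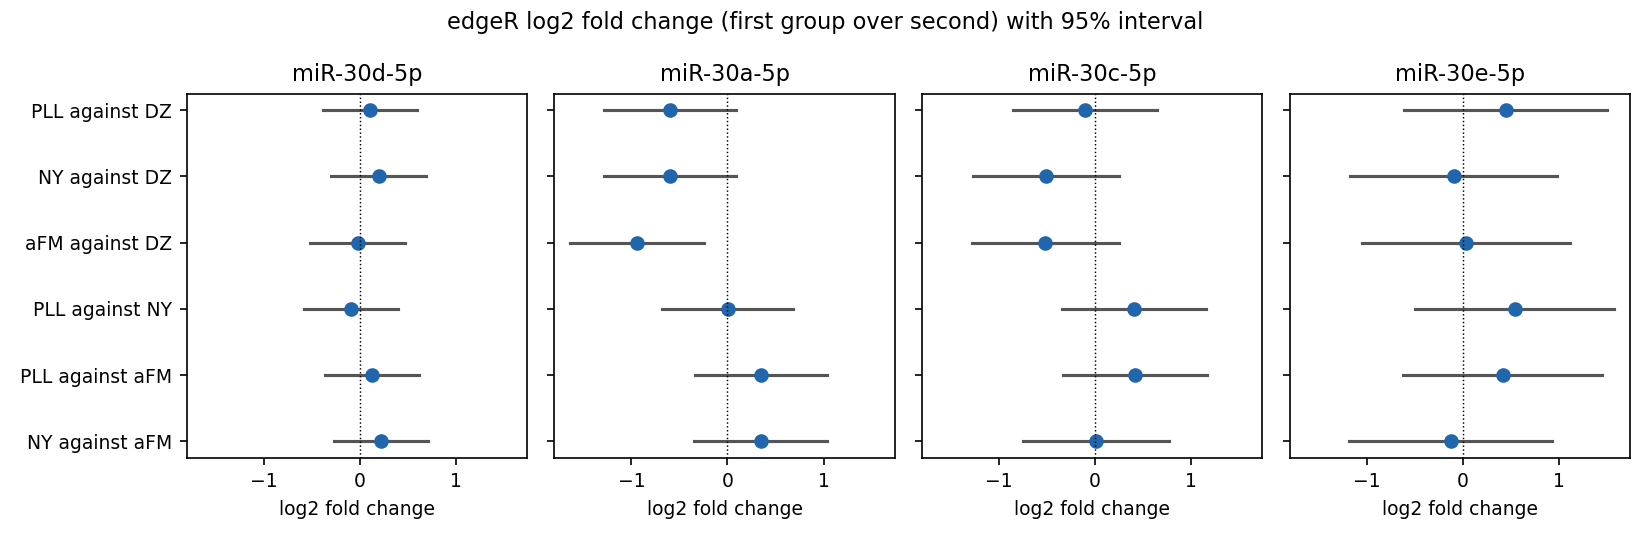
Log2 fold change (horizontal axis, first group over second) with its 95% interval for the 4 tested members in the 6 comparisons. The interval for miR-30a-5p in aFM against DZ, -1.64 to -0.25, is the one that lies to one side of 0.

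Among PLL, NY and aFM, the members' log2 fold changes ran from -0.13 to 0.54. In PLL against aFM all 4 were above 0, with 0.13 for miR-30d-5p, 0.35 for miR-30a-5p, 0.42 for miR-30c-5p and 0.41 for miR-30e-5p, and adjusted p from 0.409 to 0.717 in edgeR's test. The median over all tested miRNAs was 0.31 there. When the predicted loci also entered the filter, library sizes and dispersions, 3 of these 4 passed in PLL against aFM, with log2 fold changes of 2.12 for miR-30a-5p, 2.35 for miR-30c-5p and 1.99 for miR-30d-5p. In that setting 36.5% of the 853 rows tested were called in PLL against aFM and 52.8% in the joint test, where 2 members passed. The median annotated miRNA stood at 2.13 under that scaling, and it lay between the members' values.

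The share of each member within the family does not depend on library scaling. DZ had the lowest share of miR-30d-5p and the highest of miR-30a-5p, and neither difference passed the threshold after adjustment. miR-30d-5p held 59.1%, 59.6% and 65.0% of the counts of the 5 guides in PLL replicates A, B and C, 67.0%, 71.6% and 61.5% in NY, 68.7%, 63.3% and 65.1% in aFM, and 56.8%, 54.5% and 53.4% in DZ. All 9 libraries of the other groups lay above all 3 of DZ. The counting interval of DZ replicate A, 49.4% to 63.9%, reached above the lowest library of PLL, of NY and of aFM. The group means were 61.3% ± 3.26 in PLL, 66.7% ± 5.03 in NY, 65.7% ± 2.75 in aFM and 54.9% ± 1.70 in DZ (SD, n = 3). Over the 4 groups, the two-sided exact permutation test gave p = 0.0129, and p = 0.0643 when adjusted over the 5 members, which did not pass. The call turned on 2 libraries. The adjusted exact permutation p was 0.0188 without NY replicate C and 0.0474 without PLL replicate C, and up to 0.216 without DZ replicate C. PLL, NY and aFM each gave 0.1 against DZ in the exact permutation test of a pair, and a design of 3 and 3 libraries can go no lower.

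miR-30a-5p showed the opposite order within the family. It held 16.8%, 22.6% and 17.6% of the family's counts in PLL replicates A, B and C, 21.9%, 14.8% and 20.8% in NY, 18.5%, 11.1% and 21.2% in aFM, and 24.5%, 28.3% and 28.1% in DZ. The 3 DZ libraries were the highest of the 12, although the counting interval of DZ replicate A, 18.6% to 31.2%, reached below the highest PLL library. The exact permutation test over the 4 groups gave p = 0.0521 (adjusted p = 0.130). With 1 library left out, the adjusted exact permutation p ran from 0.0729 without aFM replicate C to 0.418 without DZ replicate B. As a ratio of counts, miR-30a-5p stood to miR-30d-5p as 0.284, 0.379 and 0.271 in PLL, 0.326, 0.206 and 0.338 in NY, 0.269, 0.176 and 0.326 in aFM, and 0.431, 0.519 and 0.526 in DZ. Shares of 1 total are tied, so a higher share of one strand implies lower shares of others, and these results are not separate. DZ also had the lowest annotated depth, in 2 of its 3 libraries below all other groups; its part in the result was not tested.

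**Figure D3:**
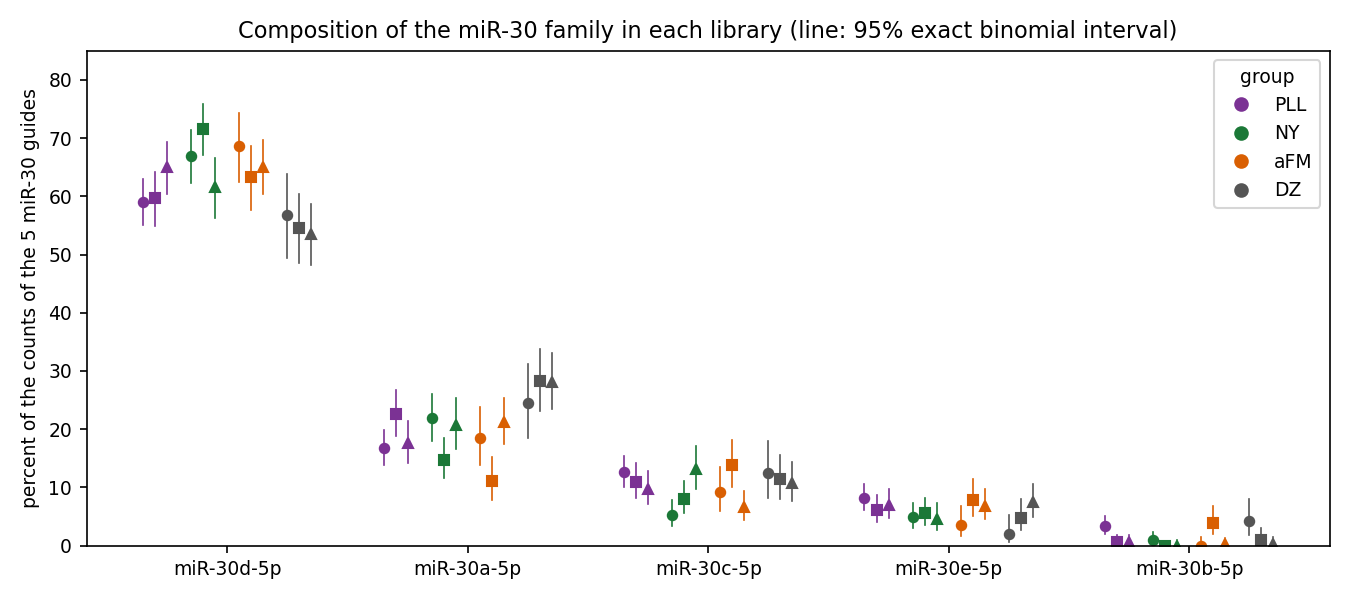
Percent of the counts of the 5 guides held by each member (vertical axis) in the libraries of PLL, NY, aFM and DZ, with exact 95% binomial intervals. The 3 DZ libraries lie below all others for miR-30d-5p and above all others for miR-30a-5p.

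For the other 3 members DZ overlapped all groups. miR-30c-5p held 11.1% ± 1.43 in PLL, 8.85% ± 3.93 in NY, 9.87% ± 3.63 in aFM and 11.5% ± 0.889 in DZ. miR-30e-5p held 7.08% ± 1.01, 4.99% ± 0.501, 6.11% ± 2.22 and 4.78% ± 2.68 in PLL, NY, aFM and DZ, and miR-30b-5p between 0.310% and 1.83% by group mean (SD, n = 3). Adjusted exact permutation p was 0.655 for each of them, although PLL and NY did not overlap for miR-30e-5p (exact permutation p = 0.1). When miR-30a-5p, miR-30d-5p and miR-30e-5p were summed, their joint share was 87.3% ± 2.92 in PLL, 90.8% ± 3.54 in NY, 88.7% ± 5.71 in aFM and 86.6% ± 2.94 in DZ, with an exact permutation p = 0.580.

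The opposite arms of the hairpins, usually degraded, were rarer than the guides in counts summed over all libraries. miR-30d-3p was nearly missing, with 8 counts against 2856 for the guide, which made the guide 99.7% of both arms (95% exact interval 99.5% to 99.9%). Guides made up 91.4% for miR-30c-5p, 85.5% for miR-30a-5p, 82.4% for miR-30b-5p and 82.3% for miR-30e-5p over all libraries. The value for miR-30b-5p rests on 56 counts against 12 (95% exact interval 71.2% to 90.5%). By library it ran from 0% to 100%, so in some libraries its opposite arm had more counts. miR-30a-3p, a strand known to be loaded in its own right, was the most frequent opposite arm with 156 counts. It had 15, 8 and 11 counts in PLL replicates A, B and C, 6, 13 and 26 in NY, 20, 6 and 9 in aFM, and 16, 14 and 12 in DZ. Scaled to depth, this was 248, 226 and 385 CPM in PLL and 199, 370 and 920 in NY. It was 873, 226 and 304 CPM in aFM and 875, 795 and 485 in DZ. The libraries of NY alone spanned the whole range on both scales. In CPM, PLL lay below DZ without overlap, and 17.4% of all tested miRNAs did not overlap in that comparison. That difference was picked out after its values were seen. miR-30e-3p had 60 counts, miR-30c-2-3p 32, and miR-30b-3p and miR-30c-1-3p 12 each.

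For miR-30c-5p, the guide's part of both arms was 97.8% in PLL (95% exact interval 94.3% to 99.4%), 85.2% in NY (77.7% to 91.0%), 89.4% in aFM (81.9% to 94.6%) and 89.7% in DZ (82.3% to 94.8%). The 3 libraries of a group were summed, so these intervals cover counting error only and no spread between libraries. By library it ran from 96.2% to 98.8% in PLL, 72.9% to 93.9% in NY, 77.8% to 97.7% in aFM and 88.9% to 90.7% in DZ. PLL lay above NY and DZ and overlapped aFM. These shares rest on few counts of the opposite arms, 4 in PLL, 18 in NY, 11 in aFM and 11 in DZ. NY replicate B alone held 6 counts of miR-30c-1-3p and 7 of miR-30c-2-3p. This difference was chosen after its values were seen and was not tested.

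**Figure D4:**
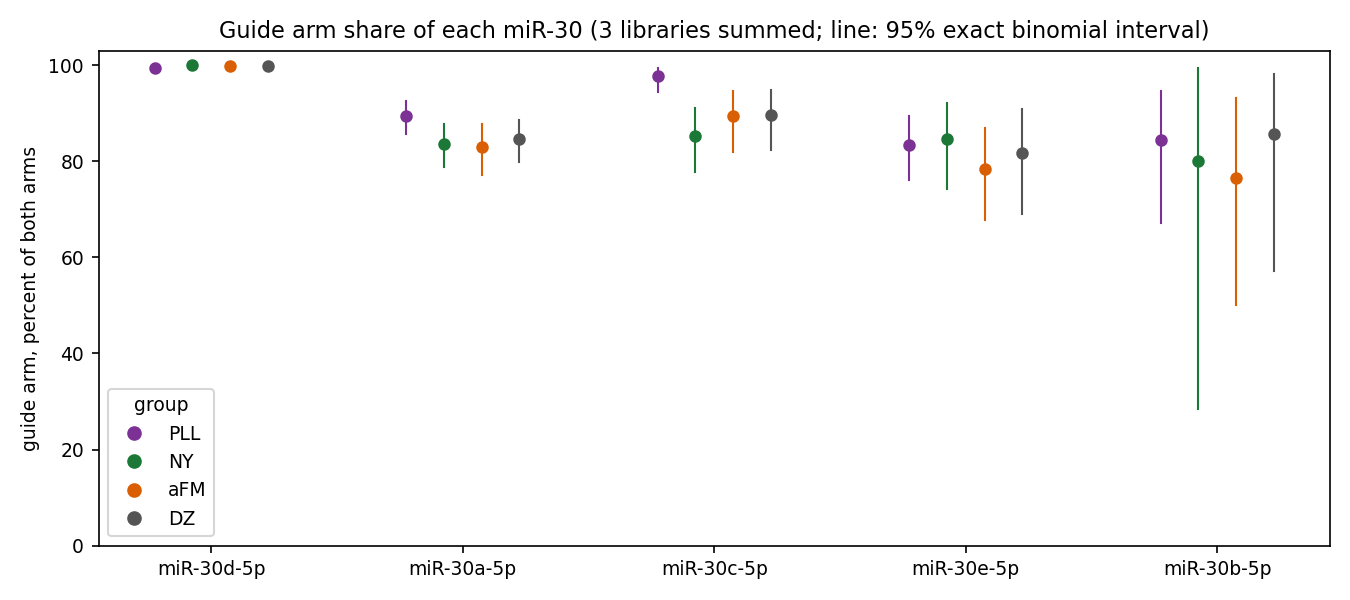
Guide arm as a percent of both arms of each hairpin (vertical axis from 0) in PLL, NY, aFM and DZ, with the 3 libraries of a group summed and exact 95% binomial intervals. miR-30d-5p lies above 99% in each group, and the intervals of miR-30b-5p are wide because few counts stand behind them.

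The members did not vary together closely across libraries. Over the 12 libraries, which share their depth and groups, Pearson correlations of log2 CPM between pairs of the 4 tested members ran from -0.19 (miR-30c-5p with miR-30d-5p) to 0.55 (miR-30d-5p with miR-30e-5p). As the pattern most like that of miR-30a-5p, miR-146a-5p, which dampens NF-κB signalling, reached r = 0.81 and let-7d-5p r = 0.65. For miR-30d-5p these were miR-24-2-5p and miR-7688-5p (r = 0.75 each), and for miR-30e-5p let-7f-5p (r = 0.69) and miR-98-5p (r = 0.66), which belong to another seed family. miR-30c-5p had miR-3473b (r = 0.56) and miR-200b-3p (r = 0.52). The summed family was most like miR-182-5p, miR-146a-5p and miR-21a-5p (r = 0.72, 0.72 and 0.71). These are the highest of 128 correlations each, whose median lay between -0.0094 and 0.090, and they serve as a description.

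Other miRNAs reported to act on the same differentiation steps are given by list. Of 12 miRNAs reported like miR-30c-5p to bind the Runx2 transcript, 3 were tested. Against DZ, 0 of them passed the threshold in PLL, NY or aFM. In PLL against aFM, miR-23a-3p and miR-23b-3p were higher, at log2 fold changes of 2.26 ± 0.49 and 1.81 ± 0.48. Their adjusted p was 0.0140 and 0.0340 in edgeR's test, and 9.09% of all tested miRNAs were called in that comparison. The 2 are named after their values were seen. Of 14 tested miRNAs reported to act in osteoblast differentiation, 1 was called lower in PLL and 0 were called in NY, each against DZ. In aFM against DZ, 2 were called higher and 3 lower. Of all 132 tested miRNAs, 3.79% were called in PLL, 0.758% in NY and 18.9% in aFM against DZ. Whether the lists differ from these background shares was not tested. The 2 of smallest p in aFM were miR-3960 (log2 fold change 4.15 ± 0.74, adjusted p = 0.0047) and miR-21a-5p (-0.58 ± 0.16, adjusted p = 0.0415). Of 8 tested miRNAs reported in fat cell differentiation, 1 was called lower in PLL and 0 in NY, beside the same background shares. In aFM, 1 was called higher and 1 lower, each against DZ. These were miR-378a-3p (1.45 ± 0.46, adjusted p = 0.0471) and the same miR-21a-5p, which is on both lists. Chosen after their values were seen, the other called members of the osteoblast list were miR-143-3p, lower in PLL and also on the fat cell list, and in aFM miR-222-3p, higher, and miR-145a-5p and miR-210-3p, lower. Median log2 fold changes against DZ in PLL, NY and aFM were 0.45, -0.12 and -1.35 for the Runx2 list, 0.49, 0.15 and -0.11 for the osteoblast list and 0.55, 0.073 and -0.068 for the fat cell list. All tested miRNAs had 0.22, 0.022 and -0.14. Whether the miR-30 members differ from these lists was not tested.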

How the data were processed

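The authors deposited whole-number counts, raw and with a column for each library, per miRNA entry or predicted locus. FastQC, STAR, StringTie, DESeq2 and the build mm39 are named, per the submitters' processing notes, without roles or versions. For the miRNA caller, its mismatch setting and the miRBase release, these sources have no entry. The extraction text speaks of messenger RNA libraries and the design text of a small RNA kit, per the labels. Of 3509 rows, 1531 were predicted loci that name no gene. With 39.3% to 89.7% of each library's total, these entered neither library sizes nor tests.

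CPM was the count divided by the library's annotated total, without scaling factors. Tests used edgeR 4.0.16 in R 4.3.3. The default filter of filterByExpr (counts of 10, totals of 15) kept 132 miRNAs and 4 of the 5 members. TMM factors were applied, and a single quasi-likelihood model of group was fitted to all 12 libraries. P-values were two-sided and adjusted by Benjamini-Hochberg over the 132, with a threshold of 0.05. The SE was the log2 fold change over the square root of F. Shares within the family were tested by a two-sided exact permutation test on F over 369600 arrangements. Scripts were tested on simulated data. Intervals (95%, Clopper-Pearson) and limits for a count of 0 (3 counts) express counting error alone, as PCR copies were not collapsed by molecular identifiers.

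The members, lists and tests were chosen with earlier results of these data known. Named were the 5 members, their opposite arms, other miRNAs with the seed, the most correlated miRNAs (2 per tested member, 3 for the sum, 1 added to each count) and, from each list, up to 2 of smallest p in the comparison with DZ that had most calls. Alternatives were RLE, upper quartile and no factors, all rows, no filter, DESeq2 1.42.0, only the 2 groups compared, a replicate block and each library left out. Replicate letters recur in the groups, and no label says that they pair libraries. Deviations of same-letter libraries correlated above 0.1 for every letter in NY against DZ (0.146 to 0.333), and not for every letter in any other comparison.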

Additional observations from a re-analysis of the deposited data

How the results depend on the processing

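The count of members past the threshold was 0 in all 84 comparisons refitted without 1 library, and 0 with the replicate block, DESeq2, RLE factors, library totals, no filter or only the 2 groups compared. It was 1 with upper quartile factors in aFM against DZ, where 23 of 132 miRNAs were called. With predicted loci in all steps it was 3 in PLL against aFM and 2 in the joint test, beside 311 and 450 of 853 rows. As a share of all counts, predicted loci included, the family held 0.559% in PLL, 0.306% in NY, 0.193% in aFM and 0.254% in DZ. Calls over all miRNAs in aFM against DZ numbered 25, against 8 with library totals, 10 with the replicate block and 15 with no filter, and 5 to 26 with 1 library left out, lowest without aFM replicate A or B. With 1 library left out, calls ran from 4 to 17 in PLL against DZ (highest without PLL replicate B), 4 to 20 in PLL against aFM, 1 to 12 in NY against aFM, 5 to 11 in PLL against NY and 9 to 23 in the joint test. With only the 2 groups compared, NY against aFM had 29 calls. With the replicate block, miR-30a-5p stood at -0.98 on the log2 scale in aFM against DZ, at an adjusted p of 0.0767, and no call on a member changed. The adjusted exact permutation p for the share of miR-30d-5p ran from 0.0188 to 0.216 with 1 library left out.

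Some log2 fold changes changed sign, none of them called in the main analysis, and the cause was not tested. With predicted loci in all steps, miR-30a-5p had 0.71 and miR-30c-5p 1.37 in PLL against DZ, miR-30d-5p 1.20 in PLL against NY, and miR-30e-5p 0.39 in NY against aFM and -0.52 in aFM against DZ. miR-30a-5p in PLL against NY had -0.0088 with library totals, -0.0025 with no filter, -0.00026 with DESeq2 and -0.22 with only those 2 groups. miR-30c-5p in NY against aFM had -0.084 with RLE, -0.026 with upper quartile factors, -0.069 with library totals, -0.077 with no filter, -0.10 with DESeq2 and -0.10 with only those 2 groups. miR-30d-5p had -0.044 in NY against DZ and -0.059 in PLL against DZ with upper quartile factors, and -0.11 in PLL against DZ with only those 2 groups. In PLL against aFM it had -0.018 with RLE, -0.026 with DESeq2 and -0.044 with only those 2 groups. In aFM against DZ it had 0.050 with RLE, 0.086 with library totals, 0.043 with no filter, 0.053 with DESeq2 and 0.048 with only those 2 groups. miR-30e-5p had 0.00035 in NY against DZ with the replicate block and -0.12 in aFM against DZ with upper quartile factors.

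With 1 library left out, miR-30a-5p ran from -0.16 to 0.15 in PLL against NY, and miR-30c-5p from -0.29 to 0.26 in NY against aFM. miR-30d-5p ran from -0.18 to 0.21 in PLL against DZ, -0.19 to 0.12 in PLL against aFM and -0.19 to 0.13 in aFM against DZ. miR-30e-5p ran from -0.53 to 0.27 in NY against DZ, -0.49 to 0.020 in NY against aFM, -0.064 to 0.73 in PLL against DZ, -0.023 to 0.49 in PLL against aFM and -0.33 to 0.47 in aFM against DZ. Depth limits miR-30b-5p most.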
